A study of Mus musculus with 2 samples.

Results

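Pan-endocrine transcription factors are DNA-binding proteins that most hormone-producing cells of the pancreatic islet share, and 8 of them were followed here: Pdx1, Neurod1, Isl1, Rfx6, Pax6, Nkx2-2, Insm1 and Glis3. They were chosen by gene symbol, and all 8 were found among the 44713 genes of the count table. The db/db library was labelled as islets of C57BL/6 Lepr-/- mice, which lack a working leptin receptor and serve as a model of obesity with diabetes. The db/m library came from C57BL/6 mice labelled wild type. By convention db/m names mice with a single db allele, a point on which the labels are silent. The labels give neither age nor sex, nor the number of animals behind a library. Total RNA was sequenced after removal of ribosomal RNA. The design text speaks of triplicates. Since 1 library per group is analysed here, no difference below has a replicate check and none has a p-value. Each ratio carries a 95% interval that covers counting error only.

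Islet endocrine cells arise from progenitors that switch on a cascade of these factors, and the mature cells keep most of them in order to go on transcribing hormone and secretion genes. Pdx1, Nkx2-2, Pax6 and Isl1 bind DNA through a homeodomain, Neurod1 through a basic helix-loop-helix domain that recognises E-boxes, Rfx6 through a winged helix, and Insm1 and Glis3 through zinc fingers. Inherited mutations of PDX1, NEUROD1, RFX6, GLIS3 and NKX2-2 cause forms of diabetes in humans. The factors are not equal among cell types. Pdx1 is strong in beta and delta cells and weak in acinar cells, Glis3 is also made by duct cells, and Isl1, Neurod1, Pax6 and Insm1 are used by neurons as well.

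Libraries of 18233695 counts for db/db and 16271129 counts for db/m stood behind the values. Counts were scaled by TMM, a trimmed mean of log ratios that sets the bulk of genes equal between libraries, and expressed as CPM, counts relative to the scaled library size, with 1 count worth 0.0516 CPM in db/db and 0.0653 CPM in db/m. Marker genes showed mostly acinar RNA in spite of the islet label. The 25 acinar markers, led by Ctrb1 and Pnlip, took 72.6% of all counts in db/db and 73.2% in db/m. The 8 islet hormone genes took 0.193% in db/db and 0.147% in db/m. Ins2 and Iapp led the hormone genes over both libraries, and Ins2 and Ins1 did so in db/m. The 8 transcription factors sat low, with 519 counts (26.8 CPM) between them in db/db and 386 counts (25.2 CPM) in db/m. Exon lengths were not used here, so levels are compared between libraries and never between genes. In such bulk RNA, fewer cells of a type and less RNA per cell cannot be told apart.

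To show the regulatory DNA of the factors with the most divergent values, the 250 bases upstream of a transcript start listed by RefSeq are given for Isl1 (chr13:116309689-116309938, minus strand), Rfx6 (chr10:51685268-51685517, plus strand), Neurod1 (chr2:79456637-79456886, minus strand) and Glis3 (chr19:28680078-28680327, minus strand), with Pdx1 (chr5:147269847-147270096, plus strand) as a factor whose counts kept pace with the bulk of genes. Sequences and positions are from RefSeq on GRCm38.p6, read 5′ to 3′ on the gene's strand, and capitals mark each E-box, CANNTG, which reads the same on the opposite strand. The Rfx6 window belongs to a start inside the annotated span of the gene, and the Glis3 window overlaps the outer end of its span, so neither need be the promoter used in these cells.
Isl1: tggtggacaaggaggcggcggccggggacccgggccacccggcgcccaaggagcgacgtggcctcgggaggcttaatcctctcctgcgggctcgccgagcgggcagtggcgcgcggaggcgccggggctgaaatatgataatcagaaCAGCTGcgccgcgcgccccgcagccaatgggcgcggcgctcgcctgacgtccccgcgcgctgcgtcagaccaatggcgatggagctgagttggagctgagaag
Rfx6: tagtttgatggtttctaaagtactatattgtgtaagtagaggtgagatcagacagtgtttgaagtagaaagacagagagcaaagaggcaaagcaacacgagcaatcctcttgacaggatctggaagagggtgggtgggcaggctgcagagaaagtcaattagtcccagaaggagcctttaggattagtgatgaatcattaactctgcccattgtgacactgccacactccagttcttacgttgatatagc
Neurod1: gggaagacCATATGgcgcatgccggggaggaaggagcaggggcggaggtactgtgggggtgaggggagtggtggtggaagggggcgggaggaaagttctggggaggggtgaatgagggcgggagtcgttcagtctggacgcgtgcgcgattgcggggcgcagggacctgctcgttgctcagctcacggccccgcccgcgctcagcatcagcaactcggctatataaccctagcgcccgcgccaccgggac
Glis3: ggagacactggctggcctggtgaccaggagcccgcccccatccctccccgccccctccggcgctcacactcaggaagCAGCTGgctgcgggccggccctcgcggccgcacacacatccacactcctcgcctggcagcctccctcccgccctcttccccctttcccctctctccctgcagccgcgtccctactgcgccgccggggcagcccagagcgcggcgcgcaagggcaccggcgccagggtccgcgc
Pdx1: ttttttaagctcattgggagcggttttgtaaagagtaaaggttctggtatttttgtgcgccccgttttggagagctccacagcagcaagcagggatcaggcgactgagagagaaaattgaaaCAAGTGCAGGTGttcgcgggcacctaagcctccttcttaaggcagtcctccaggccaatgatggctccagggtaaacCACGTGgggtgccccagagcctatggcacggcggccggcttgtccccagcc
Isl1, Neurod1 and Glis3 each had 1 E-box in this window, Rfx6 had 0, and Pdx1 had 3, of which a pair abuts. An E-box was present in 66.2% of 32851 mouse promoter windows of the same length, so its presence does not set these genes apart. The core of homeodomain sites, TAAT, searched on both strands, occurred 2 times in the Isl1 window, 3 times in that of Rfx6 and 0 times in those of Neurod1, Glis3 and Pdx1, against a presence in 54.9% of all windows. Base composition split the set differently. The Isl1, Neurod1 and Glis3 windows held 33, 22 and 24 CpG pairs at 71.2%, 67.6% and 75.6% GC, and the Rfx6 window, which lies within the gene, 2 CpG pairs at 44% GC. The Pdx1 window held 10 CpG pairs at 54.8% GC, and the median window had 6 and 52.4%.

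**Figure D1:**
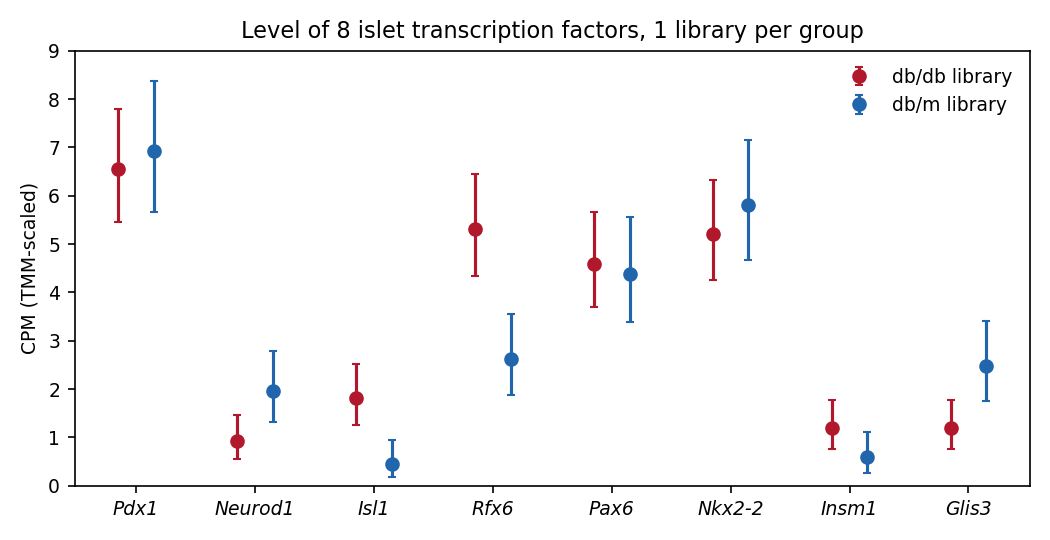
Level of each factor in CPM (TMM-scaled, y axis) in the db/db library (red) and the db/m library (blue); points are single libraries and bars are exact 95% Poisson intervals of the count. The intervals of Isl1 and Rfx6 do not overlap between the libraries, with db/db above, while those of Pdx1, Pax6 and Nkx2-2 overlap and each hold the other library's point.

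By its labels the design sets diabetic islets against those of controls, here for each factor in turn, although most of the RNA was acinar. Isl1 was 3.95-fold and Rfx6 2.04-fold higher in the db/db library, Neurod1 and Glis3 were lower, each about 2.1-fold, and Pdx1, Pax6 and Nkx2-2 were within 2-fold with intervals that include 1. A gene counted as higher or lower when the ratio reached 2-fold, the interval excluded 1 and the mean of the unscaled CPM was at least 1. By this rule 2 of the 7 factors compared were higher, 2 were lower and 3 were neither. Insm1 was not compared, since its mean was 0.907 CPM. Of all 10300 genes compared, 3.83% were higher and 4.04% lower, together 7.87%. The share depends on abundance, and among the 6152 genes with a mean CPM from 1 to 10, a range that holds all 7 factors, 5.84% were higher and 5.22% lower, together 11.1%. The factors were chosen with earlier results of these libraries known, so a count above these shares is a description.

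Isl1, the LIM-homeodomain factor of all islet hormone cells (chromosome 13, 116298270 to 116309688), had 35 counts in db/db and 7 in db/m. That is 1.81 CPM (95% Poisson interval 1.26 to 2.51) in db/db and 0.457 CPM (0.184 to 0.942) in db/m, and the ratio was 3.95 (1.73 to 10.5). Isl1 passed the filter on low counts through its db/db level alone, and a gene that passes in this way had to differ. Within the set, Isl1 made up 6.74% of the summed counts of the 8 factors in db/db (exact binomial interval 4.74% to 9.25%) and 1.81% in db/m (0.732% to 3.7%).

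Rfx6 (chromosome 10, 51677760 to 51730429), which mice need for the formation of most islet hormone cells, had 103 counts in db/db and 40 in db/m. Its level was 5.32 CPM (4.34 to 6.45) in db/db and 2.61 CPM (1.87 to 3.56) in db/m, and the ratio was 2.04 (1.4 to 3.01). The value lies just inside the 2-fold limit, and its call was lost when Ins2 set the scale (1.94) and when the summed pan-endocrine secretory genes did (1.15, 0.794 to 1.71). Rfx6 was 19.9% of the summed factor counts in db/db (16.5% to 23.5%) and 10.4% in db/m (7.51% to 13.8%), a shift in the same direction as that of Isl1.

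Neurod1, an activator of the insulin genes (chromosome 2, 79452637 to 79456636), had 18 counts in db/db and 30 in db/m, or 0.929 CPM (0.551 to 1.47) in db/db and 1.96 CPM (1.32 to 2.8) in db/m. The ratio was 0.474 (0.249 to 0.879), and only the db/m level was above 1 CPM. Neurod1 thus had to differ to be compared. Glis3, which binds the insulin promoter (chromosome 19, 28258851 to 28680265), had 23 counts in db/db and 38 in db/m, or 1.19 CPM (0.753 to 1.78) in db/db and 2.48 CPM (1.76 to 3.41) in db/m. Its ratio was 0.478 (0.272 to 0.824). Both genes lay just beyond the limit, and both calls were lost with scaling by total counts, where the ratios were 0.535 (0.281 to 0.992) for Neurod1 and 0.540 (0.307 to 0.930) for Glis3. Neurod1 made up 3.47% of the summed factor counts in db/db and 7.77% in db/m, and Glis3 4.43% in db/db and 9.85% in db/m.

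The 3 remaining homeodomain factors that were compared kept close to the bulk of genes. Pdx1, which is required to form the pancreas and later sustains insulin transcription (chromosome 5, 147270097 to 147275848), had 127 counts (6.56 CPM) in db/db and 106 (6.92 CPM) in db/m, a ratio of 0.947 (0.726 to 1.24). Nkx2-2, which maintains beta cell identity (chromosome 2, 147176485 to 147195434), had 101 counts (5.21 CPM) in db/db and 89 (5.81 CPM) in db/m, a ratio of 0.897 (0.668 to 1.21). Pax6, needed for islet hormone genes (chromosome 2, 105668896 to 105698410), had 89 counts (4.59 CPM) in db/db and 67 (4.38 CPM) in db/m, a ratio of 1.05 (0.756 to 1.46). These intervals leave room for differences of up to about 1.5-fold in either direction, and a 2-fold difference lies outside all 3 of them for counting error alone. Insm1, a zinc-finger repressor needed for endocrine development (chromosome 2, 146221997 to 146225020), had 23 counts (1.19 CPM) in db/db and 9 (0.588 CPM) in db/m, a ratio of 2.02 (0.900 to 4.96). That interval included 1, so with so few counts no difference was detected on the TMM scale. With scaling by total counts the ratio was 2.28 (1.02 to 5.6), an interval just above 1, and Insm1 remained too low to be compared.

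**Figure D2:**
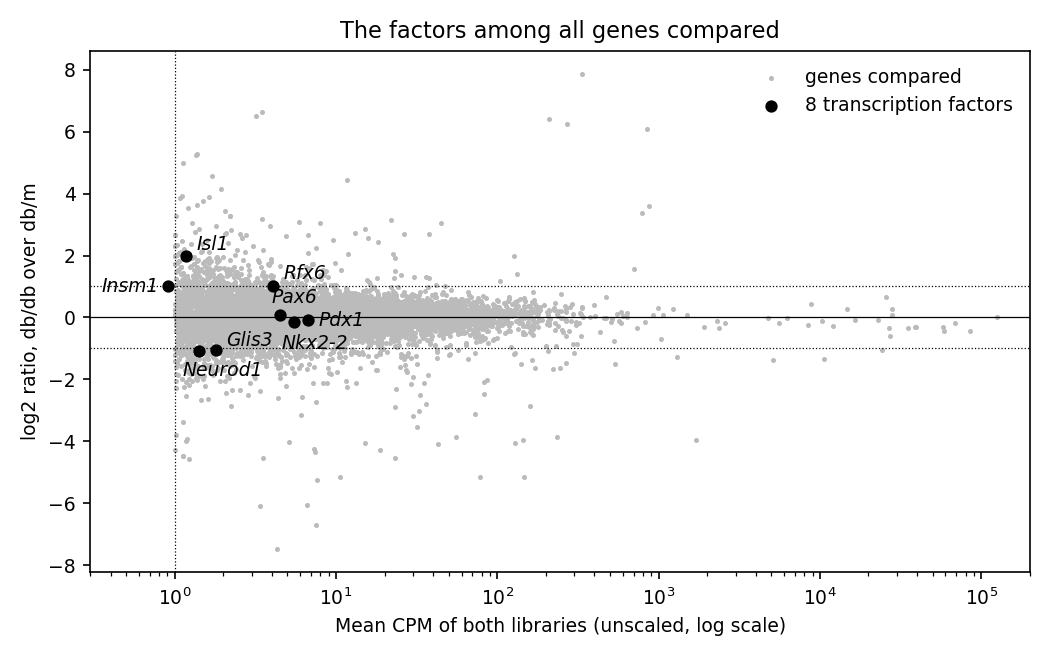
The log2 ratio of db/db over db/m (y axis) against the mean unscaled CPM (x axis, log scale) for the 10300 genes compared (grey) and the 8 factors (black); dotted lines mark 2-fold and 1 CPM. Isl1 stands at 1.98 near the left edge, where the grey points spread most, and Insm1 lies left of the filter.

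Genes that overlap the factors could share reads with them, since no source used here says whether counting took strand into account. The antisense RNA Pax6os1 had 0 counts in db/db and 2 in db/m, and Nkx2-2os had 4 in db/db and 2 in db/m. Elp4, an Elongator subunit gene whose annotated end overlaps that of Pax6, had 66 counts in db/db and 49 in db/m. The long non-coding RNA 6430503K07Rik, inside the annotated span of Nkx2-2, had 17 counts in db/db and 18 in db/m, and D930032P07Rik, which overlaps Glis3, had 0 counts in either library. Pax6 and Nkx2-2, the factors with counted neighbours, were among those within 2-fold. No overlapping gene was annotated for Isl1, Rfx6, Neurod1 or Insm1, and Plut at Pdx1 and Gm35866 within Glis3 were not analysed here.

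Setting the factors against each other removes the scaling, because both counts of a pair come from the same libraries. Of the 28 pairs, 16 had a ratio of ratios whose exact conditional 95% interval excluded 1, and 8 when the level was adjusted for 28 pairs. The db/db over db/m ratio of Isl1 was 8.33 times that of Neurod1 (2.81 to 26.4) and 8.26 times that of Glis3 (2.93 to 25.2). That of Rfx6 was 4.29 times the Neurod1 ratio (2.04 to 9.1) and 4.25 times the Glis3 ratio (2.16 to 8.44). All 4 of these pairs kept an interval above 1 at the adjusted level. So did Isl1 and Rfx6 against Pdx1, at 4.17 times (1.73 to 11.5) and 2.15 times (1.35 to 3.46), and against Nkx2-2, at 4.41 times (1.8 to 12.3) and 2.27 times (1.39 to 3.71). In descending order the ratios ran Isl1, Rfx6, Insm1, Pax6, Pdx1, Nkx2-2, Glis3 and Neurod1, and 0 of the 7 neighbouring pairs differed beyond their interval. Nkx2-2 and Glis3 were the closest to doing so, at 1.88 times (0.9996 to 3.56). Isl1 and Rfx6 could not be separated from each other, at 1.94 times (0.764 to 5.59), nor Glis3 from Neurod1, at 1.01 times (0.431 to 2.38).

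**Figure D3:**
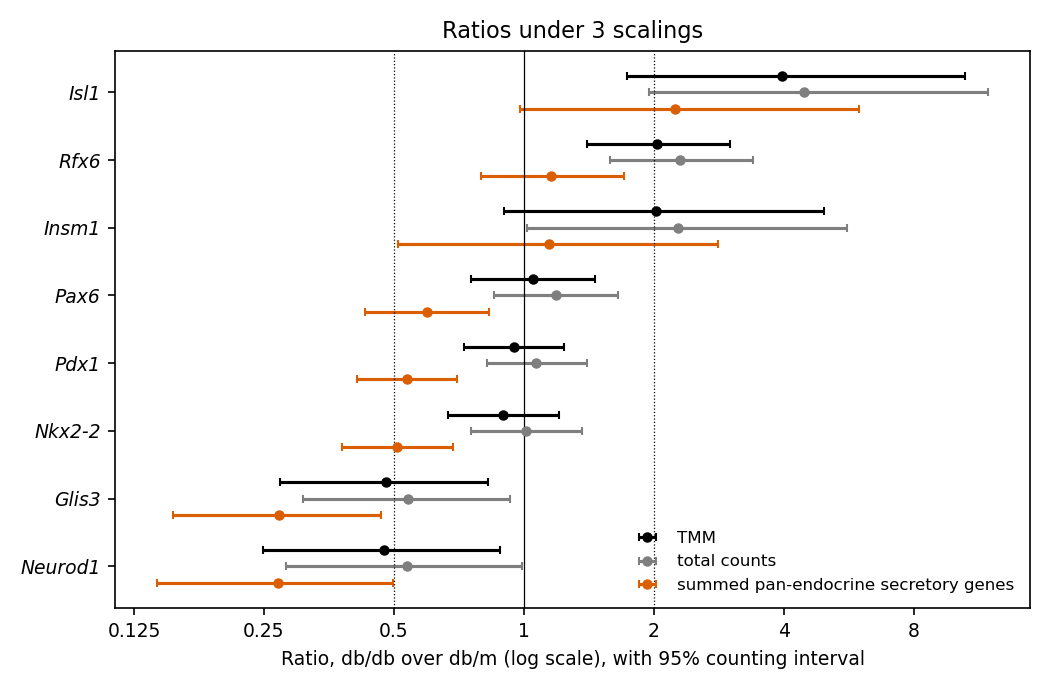
Ratio of db/db over db/m (x axis, log scale) of each factor under 3 scalings, with exact 95% counting intervals; dotted lines mark 2-fold. The order of the factors is fixed, and the whole set moves to the left when the summed pan-endocrine secretory genes set the scale, with Isl1 then at 2.24 and Neurod1 at 0.269.

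Summed over the 8 factors, the db/db counts were 1.06 times those of db/m (0.930 to 1.22), or 1.2 times (1.05 to 1.37) with scaling by total counts. Genes of the regulated secretory pathway, which these factors help to activate, stood higher. Of the 26 compared, 8 were higher in db/db, 1 was lower and 17 were neither, beside 3.83% higher and 4.04% lower over all genes compared. The median log2 ratio of the 26 was 0.62, beside 0.02 for all genes compared. The summed counts of the secretory genes were 10284 in db/db and 4610 in db/m, a ratio of 1.76 (1.70 to 1.83). Among the genes called, the largest differences were those of the granule protein gene Chgb, with 498 counts in db/db and 66 in db/m (5.96-fold, 4.61 to 7.83), of the granule membrane protein gene Ptprn with 354 in db/db and 68 in db/m (4.11-fold, 3.17 to 5.42), and of Stx1a, a syntaxin of exocytosis, with 18 in db/db and 44 in db/m (3.09-fold lower, 1.75 to 5.69). Stx1a was above 1 CPM in db/m alone and so had to differ to be compared. The same holds for Slc18a1, among those called higher, with 1.55 CPM in db/db and 0.653 CPM in db/m. Vgf, a granule peptide gene too low to be compared and picked out with its values known, had 29 counts in db/db and 1 in db/m, a ratio of 22.9 (3.8 to 936). Per unit of this secretory RNA the factor sum was 0.603 (0.527 to 0.689) in db/db relative to db/m. On that scale the intervals of 5 factors lay below 1 (Pdx1, Neurod1, Pax6, Nkx2-2 and Glis3), those of the other 3 included 1, and 0 factors were called higher, with Isl1 at 2.24 (0.981 to 5.98). On the scale of Ins2, the insulin gene that differed little, the sum was 1.01 (0.885 to 1.16). The direction of Isl1, Rfx6, Insm1, Neurod1 and Glis3 was the same under all 6 scalings, while that of Pdx1, Pax6 and Nkx2-2 was not.

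Beside these values stand those of other cells. Of the 7 islet hormone genes compared, 4 were higher in db/db (Sst, Ppy, Pyy and Gcg), 1 was lower (Ins1) and 2 were neither. Beside this count and those of the marker lists that follow, 3.83% of all 10300 genes compared were higher and 4.04% lower. Sst, the delta cell hormone gene, had 723 counts in db/db and 65 in db/m, and Gcg, that of alpha cells, had 3792 in db/db and 752 in db/m. Neuron and Schwann cell markers, of cells that can also use Isl1, Neurod1 and Insm1, summed to 66 counts in db/db and 39 in db/m over 14 genes, a ratio of 1.34 (0.887 to 2.04), with 5 at 0 in each library, among them Chat and S100b in both. Elavl4 had 17 counts in db/db and 16 in db/m. Tubb3, with 16 in db/db and 3 in db/m (4.22-fold, 1.21 to 22.6), and Vip, with 5 in db/db and 0 in db/m, had more counts in db/db, as Isl1 did, and were named after their values were seen. Enteroendocrine markers other than Chgb were at 0 in both libraries for Gip, Sct, Tph1 and Nts, but Cck had 32 counts in db/db and 0 in db/m. With a floor of 3 counts for the db/m library Cck was 8.43-fold higher, and its interval began at 6.47-fold. Cck was too low to be compared. Of the 8 duct markers compared, 0 were higher and 1 was lower (Ambp), and the 12 in the table summed to 2497 counts in db/db and 2915 in db/m, a ratio of 0.677 (0.642 to 0.714). Muc1, with 1392 counts in db/db and 1817 in db/m, made up most of that sum and was followed by Spp1, with 366 in db/db and 376 in db/m. Other duct markers, named after their values were seen, stood on the other side, with Krt19 at 1.22 (0.990 to 1.51), Krt7 at 1.28 (0.837 to 1.99) and Slc4a4 at 24 counts in db/db and 4 in db/m. Mesenchyme markers, led by Vim and Dcn, had a ratio of 0.938 (0.777 to 1.13), endothelial markers, led by Pecam1 and Plvap, 0.703 (0.565 to 0.874), and immune markers, led by Cd74 and Lyz2, 0.893 (0.738 to 1.08). Called members were Acta2, Kdr and Plvap, all lower, and Lyz2, higher. Acta2 and the duct marker Ambp were above 1 CPM in db/m alone and so had to differ to be compared. Of the 25 acinar markers compared, 0 were higher and 3 were lower (Reg1, Amy2b and Amy2a5), and 14 of 15 immediate early genes were lower, with Atf3, Fosb and Egr1 farthest at log2 ratios of -4.55, -4.27 and -4.08. The part of these differences in the factors' ratios was not tested.

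Other transcription factors of islet cells, given for context, leaned lower by their median log2 ratio, as did those of acinar and duct cells. Of 15 islet factors compared among 32 in the table, 1 was higher, 3 were lower and the other 11 were neither. For this list and the acinar and duct list below, the shares over all genes compared were 3.83% higher and 4.04% lower. The median log2 ratio of the 15 was -0.40, or -0.22 with total counts. The higher one was Etv1, an ETS factor, with 45 counts in db/db and 8 in db/m (4.45-fold, 2.07 to 10.9). Of the 15 its log2 ratio of 2.15 was nearest to the 1.98 of Isl1, and like Isl1 it was above 1 CPM in db/db alone, so that both had to differ to be compared. The lower ones were Mafa, an insulin gene activator of mature beta cells, with 4 counts in db/db and 33 in db/m (above 1 CPM in db/m alone), Nkx6-1, a beta cell homeodomain factor, with 26 in db/db and 51 in db/m (2.48-fold lower, 1.52 to 4.15), and Hnf4a, a nuclear receptor that exocrine cells express too, with 321 in db/db and 604 in db/m. The nearest to Neurod1 and to Glis3 was Etv5, at a ratio of 0.5002 just short of the limit, with 150 counts in db/db and 237 in db/m. Foxo1 at -0.05 was nearest to Pdx1 and Nkx2-2, and Onecut1 at 0.73 to Rfx6 and Insm1. Likeness here is the difference between log2 ratios over 2 libraries and describes these libraries only. Of 12 acinar and duct factors 0 were higher and 2 were lower, Hes1 with 16 counts in db/db and 52 in db/m, and Klf5 with 34 in db/db and 54 in db/m. Hes1, like Mafa, was above 1 CPM in db/m alone, so both had to differ to be compared. The median log2 ratio of the 12 acinar and duct factors was -0.63, or -0.45 with total counts. Not all of them were lower. Bhlha15 at 1.28 (1.21 to 1.36), Rbpjl at 1.12 (1.06 to 1.18) and Gata4 at 1.05 (0.947 to 1.16) had ratios above 1. These genes were named after their values were seen, and the rest of that list had ratios below 1.

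**Figure D4:**
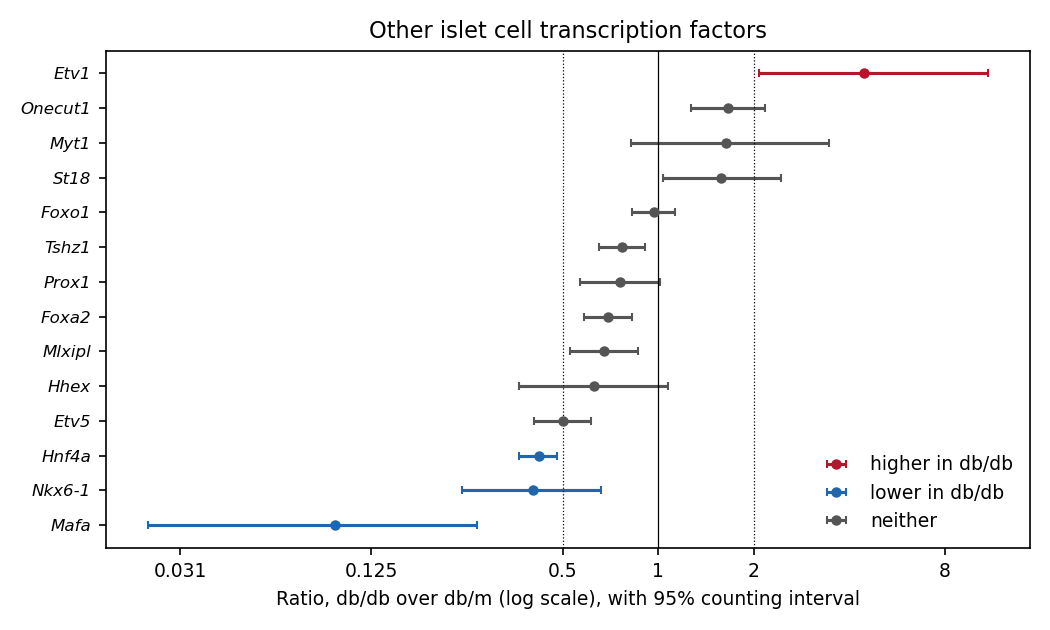
Ratio of db/db over db/m (x axis, log scale) with exact 95% counting intervals for the other islet cell transcription factors with a mean of at least 1 CPM, of which 1 is not drawn; colours give the call and dotted lines mark 2-fold. Etv1 at 4.45 stands alone on the right, and Mafa, Nkx6-1 and Hnf4a lie on the left.

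Relatives of the 8 factors were mostly silent. Of 37 paralogs 24 had 0 counts in both libraries, among them Neurod2, Neurod4, Insm2 and Glis1, and 6 were compared. Among these 6, 2 were higher, 0 were lower and 4 were neither, beside 3.83% higher and 4.04% lower over all genes compared. Rfx2, a ciliary gene regulator, was higher in db/db with 47 counts against 18 in db/m (2.06-fold, 1.18 to 3.78), and Glis2, a zinc-finger relative of Glis3, was higher with 106 counts in db/db against 37 in db/m (2.26-fold, 1.54 to 3.39), while Glis3 itself was lower. Rfx3, a factor that can pair with Rfx6, had 162 counts in db/db and 146 in db/m, a ratio of 0.877 (0.697 to 1.1), and was named after its value was seen. Neurog3, which switches on the endocrine cascade in the embryo, had 1 count in db/db and 0 in db/m.

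Genes of proteins that bind the factors were mostly neither higher nor lower, as were most of all genes compared. Of 34 partner genes compared, 1 was higher (Rfx2), 0 were lower and the other 33 were neither. Over all 10300 genes compared, 3.83% were higher and 4.04% lower. The median log2 ratio of the partner genes was -0.06, or 0.12 with total counts. Named after their values were seen, Ldb1, an adaptor that binds Isl1, had 223 counts in db/db and 188 in db/m, a ratio of 0.938 (0.769 to 1.14), Tcf3, an E protein that pairs with Neurod1, was at 1.26 (0.942 to 1.7), and Kdm1a, the histone demethylase recruited by Insm1, at 0.918 (0.748 to 1.13).

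Target genes of the factors did not share a direction. Of 23 compared, 2 were higher, 6 were lower and the other 15 were neither, beside 3.83% higher and 4.04% lower over all 10300 genes compared. The median log2 ratio of the target genes was 0.04 (0.22 with total counts and -0.77 on the scale of the secretory genes). The higher ones were the hormone genes Sst and Gcg. The lower ones all act in beta cells: Mafa and Nkx6-1, Ins1 with 2616 counts in db/db and 4363 in db/m, the glucose transporter gene Slc2a2 with 35 in db/db and 129 in db/m, the zinc transporter gene Slc30a8 with 66 in db/db and 227 in db/m, and Ucn3, a peptide of mature beta cells, with 36 in db/db and 71 in db/m. Abcc8, the sulfonylurea receptor gene, had 429 counts in db/db and 237 in db/m, a ratio of 1.43 (1.22 to 1.68). Abcc8 was named after its values were seen.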

How the data were processed

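The data are raw gene counts made and deposited by the authors, 1 column per library, with no normalization. Per the submitters' processing notes, HISAT2 2.0.4 was the aligner, with mm10 and GRCm38 as builds. How reads were counted, and with which annotation and strand setting, is not given in the sources at hand. Groups came from the library titles, and 0 count columns were left unmapped. TMM factors came from edgeR 4.0.16 in R 4.3.3. Ratios have exact Clopper-Pearson intervals from the db/db share of both counts, single levels exact Poisson intervals, and pairs exact conditional odds ratio intervals (Python 3.11.15, numpy 2.4.6, scipy 1.17.1, pandas 2.3.3, matplotlib 3.10.9). PCR copies are not independent molecules, so intervals cover counting error only. Counts of 0 took a floor of 3 counts, or the other library's count where smaller, or 1 where both were 0. The interval code was tested on simulated data. Alternatives were 5 other scalings (1 with DESeq2 1.42.0 size factors), filters on low counts, fold limits and stricter intervals. The 8 factors and all gene lists were chosen with earlier results of these data known, and no list was tested. Genes named are the 8 factors, overlapping genes, called members of the lists (at most 3 per list, and all for other islet factors, paralogs and targets), the 2 most abundant genes of each marker list and the islet factor nearest in ratio. Genes outside this rule were named as well, some of them marked in the text as named after their values were seen. Gene positions are from RefSeq on GRCm38.p6, matched by symbol for all 8. A few list genes are part of the counts given but are not reported here by name.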

Additional observations from a re-analysis of the deposited data

How the results depend on the processing

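The number of factors called changed with several settings. Against 2 higher and 2 lower, there were 2 higher and 0 lower with scaling by total counts, with or without acinar markers and islet hormones, 0 higher and 2 lower with the summed pan-endocrine secretory genes, and 1 higher (Isl1) and 2 lower with Ins2. There were 0 higher and 0 lower with a minimum of 5 CPM, a fold limit of 4, intervals at the Bonferroni level over all genes compared, or intervals required to lie beyond 2-fold. The calls were the same 4 factors with DESeq2 size factors, no minimum CPM and a fold limit of 1.5. The summed ratio was 0.603 with the secretory genes as scale, and 8 of 28 pairs remained at the adjusted level. Of 40 single ratios under other scalings 35 stayed within the interval of the TMM value, and the other 5 moved under the secretory gene scale. Levels by transcript length were not run, since exon lengths were not used here. No paired analysis was possible because the libraries share only 1 replicate number. Counts from 7 to 127 per factor and library limit what can be told apart.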
